A study of Mus musculus with 2 samples.

Results

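The heterotrimeric G protein subunit genes described here are Gnas, Gnai2, Gnai3, Gnaq, Gna11, Gna12, Gna13, Gnb1, Gnb2 and Gng12, chosen by gene symbol, with every array probe that the platform annotation assigns to them. They make up 10 of the 16593 named genes and 15 of the 25697 probes of the series. RNA came from mouse fibroblasts kept on gold nanoparticles and exposed to an electromagnetic field (EMF+AuNPs) and from control fibroblasts (Control), with 1 Illumina bead array for each. No array of nanoparticles alone or of the field alone was part of the comparison, and the labels give neither strain, animal age, field settings nor exposure time. The list was built around Gnas, whose lower signal with EMF+AuNPs was known beforehand, so the values of that comparison are a description. With 1 array per condition no value carries a replicate error and no test between conditions was possible. In bulk RNA, fewer cells of a type and less RNA per cell cannot be told apart.

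Heterotrimeric G proteins carry the signal of cell-surface receptors, which thread several times through the membrane, to enzymes and channels inside the cell. An alpha subunit binds GDP at rest, exchanges it for GTP when a receptor is activated, and then separates from the dimer of a beta and a gamma subunit. Gnas encodes the stimulatory alpha subunit, which activates adenylyl cyclase and so raises cAMP, while Gnai2 and Gnai3 encode inhibitory alpha subunits. Gnaq and Gna11 encode alpha subunits that activate phospholipase C beta, and Gna12 and Gna13 encode alpha subunits that act on the cell's actin skeleton. Gnas is also an imprinted locus with several alternative promoters and first exons, which give transcripts for the stimulatory subunit, its extra-large form, a secretory protein and non-coding RNAs.

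Gnas lies on the plus strand at chr2:174284320-174346744 of GRCm38.p6 and has 12 curated transcripts in the RefSeq table. The promoter table, also from RefSeq and GRCm38.p6, held 13 windows for 9 of the 10 genes, each running from 250 bases before a transcript start to 50 bases after it. It held 4 windows for Gnas, of which 2 overlap, and the 3 distinct ones are shown because the probes of this gene were assigned to different transcripts and gave different signals. Capitals mark TGACG (the short form of the cAMP response element), the GC box GGGCGG and the TATA motif TATAAA, searched on both strands.

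Gnas chr2:174284070-174284369, plus strand: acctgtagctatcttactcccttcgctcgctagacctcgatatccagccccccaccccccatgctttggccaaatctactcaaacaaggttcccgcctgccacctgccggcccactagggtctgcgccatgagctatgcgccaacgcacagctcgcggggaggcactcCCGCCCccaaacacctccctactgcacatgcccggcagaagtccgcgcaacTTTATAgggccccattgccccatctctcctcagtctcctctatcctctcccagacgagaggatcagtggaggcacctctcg

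Gnas chr2:174327499-174327798, plus strand: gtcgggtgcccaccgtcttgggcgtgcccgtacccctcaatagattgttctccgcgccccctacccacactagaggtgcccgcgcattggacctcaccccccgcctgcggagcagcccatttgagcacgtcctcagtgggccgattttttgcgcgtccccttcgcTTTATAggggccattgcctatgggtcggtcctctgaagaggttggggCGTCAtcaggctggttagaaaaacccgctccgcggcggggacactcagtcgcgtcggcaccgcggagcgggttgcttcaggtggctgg

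Gnas chr2:174329756-174330055, plus strand: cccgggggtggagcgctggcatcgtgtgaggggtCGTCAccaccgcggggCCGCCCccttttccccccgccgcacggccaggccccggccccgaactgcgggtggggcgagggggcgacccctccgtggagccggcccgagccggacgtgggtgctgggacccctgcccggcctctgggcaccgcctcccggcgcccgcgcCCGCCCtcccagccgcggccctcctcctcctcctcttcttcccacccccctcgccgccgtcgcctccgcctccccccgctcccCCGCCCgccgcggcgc

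The most upstream window held 1 GC box and 1 TATA motif, the middle one 1 short element and 1 TATA motif, and the most downstream one 1 short element and 3 GC boxes. GC content was 81.7% in the most downstream window, 64.3% in the middle one and 61.0% in the most upstream one, against a median of 52.7% over 32851 promoter windows of 300 bases. With the 2 overlapping Gnas windows counted once, 12 windows remained for the subunit genes, of which 9 held a GC box, 5 a short element, 2 a TATA motif and none the full element TGACGTCA, which contains the short element. The same motifs occurred in 35.7%, 20.8%, 13.6% and 1.8% of all windows, where overlapping windows were not merged. Which of these starts each array probe reports was not analysed here.

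Gnas has 4 probes, and they fell into a bright and a dim pair. The brightest, ILMN_2632206, had an intensity of 2545.3 with EMF+AuNPs and 6391.7 in Control. ILMN_1223437, assigned to the same transcript record (NM_010309), had 1266.2 with EMF+AuNPs and 2182.2 in Control. Both were detected on both arrays with a detection p of 0, the p-value that rates a probe against negative-control beads, and both were lower with EMF+AuNPs. ILMN_3056973, assigned to NM_201617, had 127.2 with EMF+AuNPs and 142.3 in Control, and ILMN_3075080, assigned to the non-coding record NR_003258, had 100.7 with EMF+AuNPs and 92.5 in Control. Neither of these last probes was detected on either array at a detection p under 0.01, so they give no fold. Whether the transcripts they report were present or differed cannot be told from these probes.

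**Figure D1:**
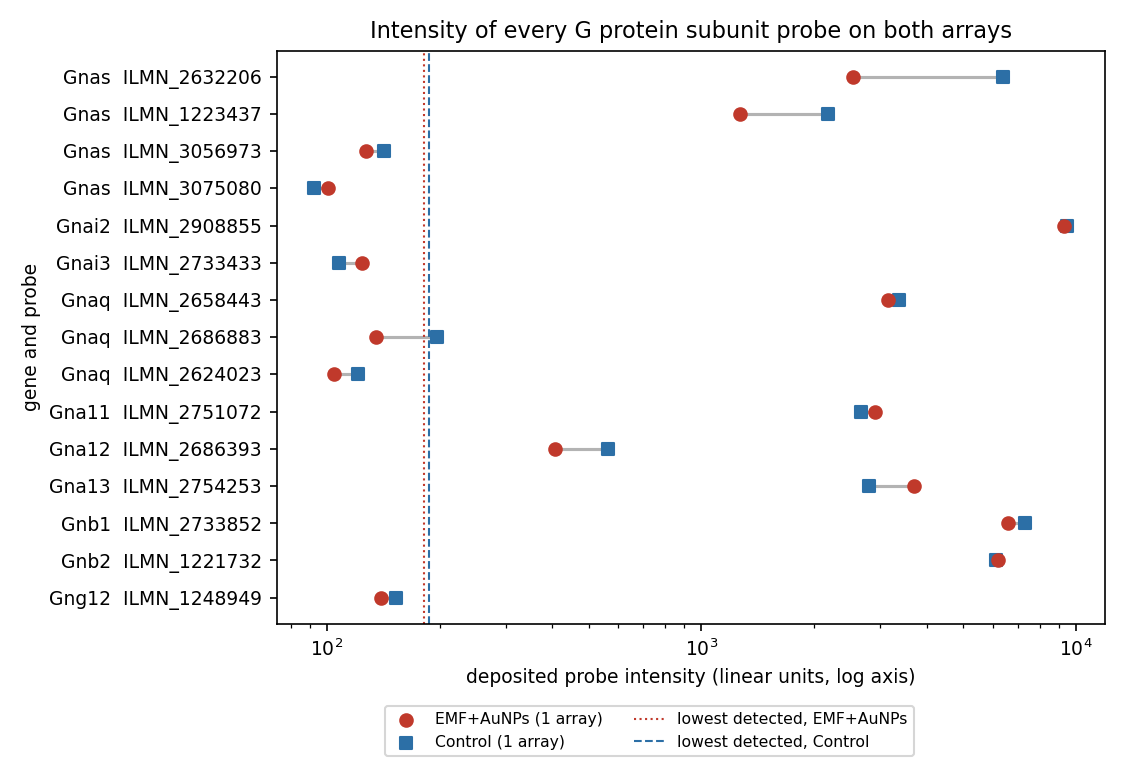
Deposited intensity of each of the 15 subunit probes (log axis), 1 row per probe, with EMF+AuNPs as circles, Control as squares and the lowest detected intensity of each array as vertical lines. The 2 bright Gnas probes lie furthest apart among the probes detected on both arrays, at 2545.3 and 1266.2 with EMF+AuNPs against 6391.7 and 2182.2 in Control.

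After background correction and quantile normalization (neqc), the brightest Gnas probe had a log2 level of 11.28 with EMF+AuNPs and 12.61 in Control. The log2 difference, EMF+AuNPs minus Control, was -1.33, or 2.52-fold lower. The difference of the second probe was -0.78, or 1.72-fold lower. In the authors' deposited log2 values, which carry no background correction, the same probes differed by -1.30 and -0.73. As a yardstick, the robust SD of the differences of probes of like brightness (the scaled median absolute deviation, in 20 equal bins) was 0.19 for the first probe and 0.21 for the second. That spread mixes measurement noise with any true change between the cultures and is no substitute for replicates. Among the 579 probes of its brightness bin the brightest Gnas probe had the lowest difference, while in the bin of the second probe 6 of 579, itself included, lay at or below it. Of 8199 genes detected on both arrays and represented by their brightest probe, Gnas ranked 9 from the lowest difference.

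**Figure D2:**
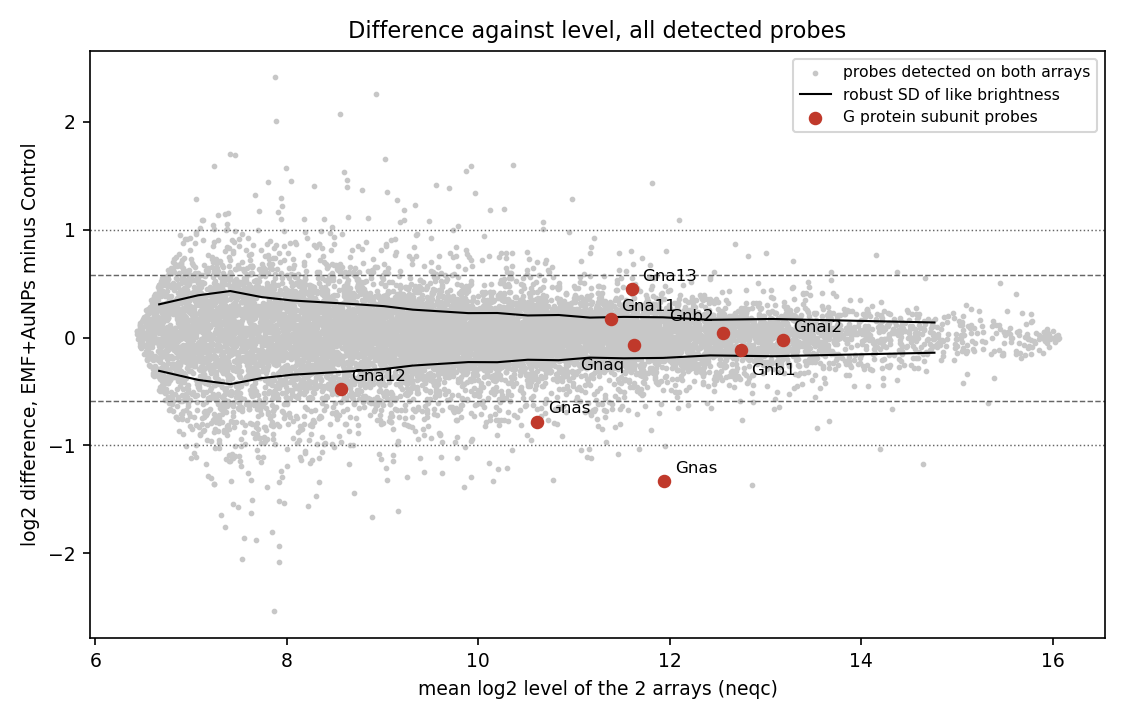
Log2 difference (EMF+AuNPs minus Control) against the mean log2 level of the 2 arrays for all probes detected on both, with the robust SD of like brightness as solid lines, 1.5-fold as dashed lines and 2-fold as dotted lines. The 2 Gnas probes lie at -1.33 and -0.78 and the other 7 subunit probes between -0.48 and 0.45.

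The 2 detected Gnas probes had the same direction and differed in size by 0.55 on the log2 scale. The array held 1488 genes with exactly 2 probes detected on both arrays, and the median gap between the 2 probes of a gene was 0.18. A gap at least as large as that of Gnas was found for 153 of them (10.3%). The 2 probes had the same sign for 937 of the 1488 genes (63.0%). Both probes were at least 1.5-fold lower for 22 genes (1.48%), Gnas among them, and both were at least 2-fold lower for 3 genes (0.202%), a limit that the second Gnas probe did not reach. Since Gnas was chosen on this comparison, nothing further is read from these shares.

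**Figure D3:**
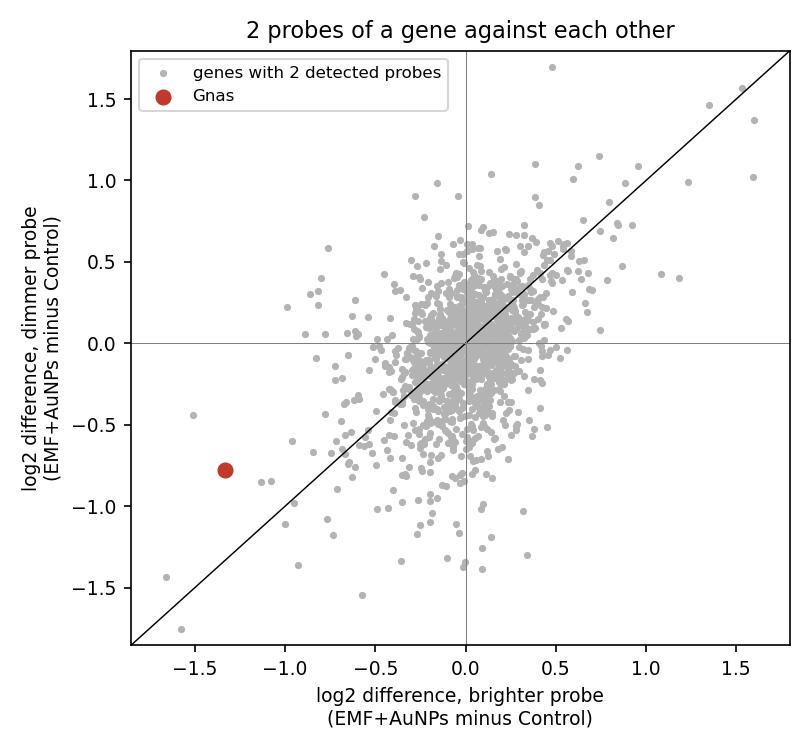
Log2 difference (EMF+AuNPs minus Control) of the dimmer probe against that of the brighter probe for the 1488 genes with exactly 2 probes detected on both arrays, with the line of equality. Gnas lies in the lower left corner above the line, at -1.33 for its brighter and -0.78 for its dimmer probe.

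The inhibitory alpha subunit gene Gnai2, on chromosome 9, was bright on both arrays. Its 1 probe had an intensity of 9273.4 with EMF+AuNPs and 9464.6 in Control, a log2 difference of -0.03 that turned to 0.05 under median centring. Gnai3, on chromosome 3, encodes a closely related inhibitory subunit, and its 1 probe was not detected on either array, with 124.2 with EMF+AuNPs and 108.0 in Control. Of the opposing regulators of adenylyl cyclase among the subunits described here, the stimulatory gene differed by -1.33 and -0.78 on its 2 detected probes. The inhibitory gene Gnai2 differed by -0.03. As Gnas was chosen on this comparison, nothing further is read from that contrast.

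Gnaq, on chromosome 19, has 3 probes assigned to 1 transcript record. ILMN_2658443 had an intensity of 3147.1 with EMF+AuNPs and 3365.0 in Control, a log2 difference of -0.06. ILMN_2686883 was detected in Control alone, with 135.0 with EMF+AuNPs and 196.8 in Control, so it was at least 1.10-fold lower with EMF+AuNPs. For that bound the EMF+AuNPs side was taken at its own level or, where higher, at the lowest level detected on that array. The log2 levels as measured were 5.43 with EMF+AuNPs and 6.56 in Control. ILMN_2624023 was detected on neither array. Gna11, on chromosome 10, the close relative of Gnaq, had an intensity of 2903.3 with EMF+AuNPs and 2659.6 in Control, a log2 difference of 0.17, within the robust SD of 0.19.

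Gna13, on chromosome 11, had the highest difference of the detected subunits described here. Its 1 probe had an intensity of 3697.0 with EMF+AuNPs and 2802.9 in Control. The log2 difference was 0.45, or 1.36-fold higher, against a robust SD of 0.19, and 39 of 579 probes of like brightness, itself included, differed at least as much in either direction. Gna12, on chromosome 5, encodes the other alpha subunit of the same class and differed the other way. Its 1 probe had 406.9 with EMF+AuNPs and 561.9 in Control, a log2 difference of -0.48, or 1.39-fold lower, against a robust SD of 0.31. In its bin 89 of 579 probes differed at least as much. Neither gene passed 1.5-fold.

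The beta subunit genes differed little. Gnb1, on chromosome 4, had an intensity of 6598.0 with EMF+AuNPs and 7293.3 in Control, a log2 difference of -0.12. Gnb2, on chromosome 5, had 6183.6 with EMF+AuNPs and 6096.2 in Control, a log2 difference of 0.04. Both lay within the robust SDs of 0.17 for probes of their brightness. The gamma subunit gene Gng12, on chromosome 6, was not detected on either array by its 1 probe, with 139.1 with EMF+AuNPs and 153.2 in Control.

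Of the 10 genes, 8 were detected, and 1 of these, Gnas, was at least 1.5-fold lower by its brightest probe, where 2.91% of all 8651 detected genes were. Gnas was also the 1 gene at least 2-fold lower, where 0.485% of all genes were. None of the 8 was 1.5-fold or 2-fold higher, against 3.34% and 0.52% of all genes. The median log2 difference of the 8 was -0.05, against 0.03 over all detected genes. As the comparison entered the choice of Gnas, these counts describe the list and nothing more.

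**Figure D4:**
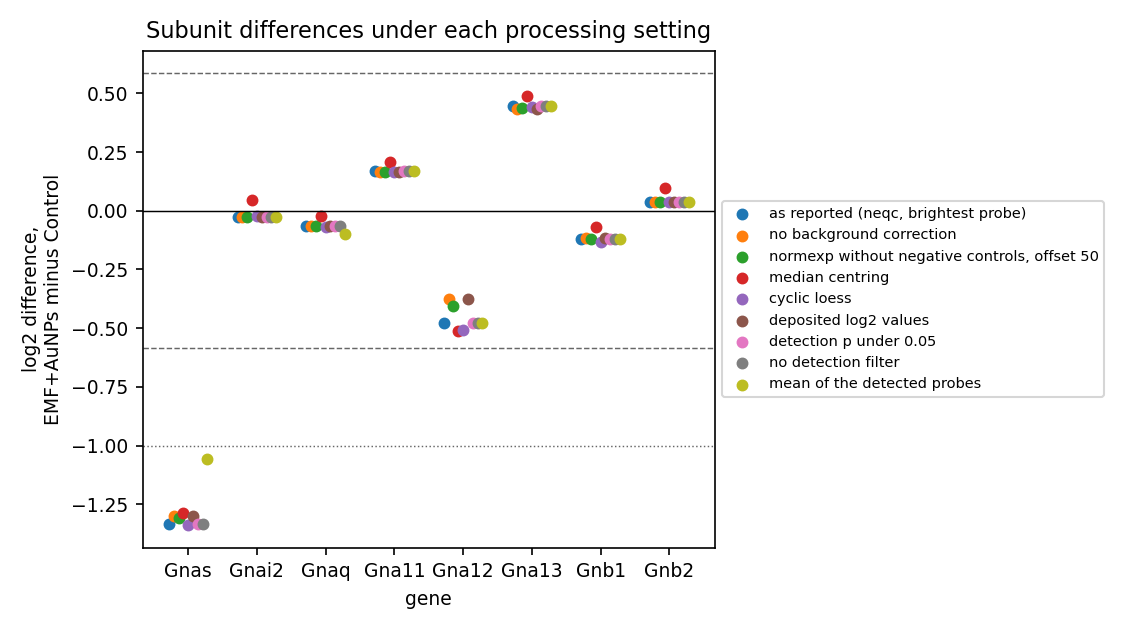
Log2 difference (EMF+AuNPs minus Control) of the 8 detected subunit genes under the setting reported here and the 8 alternatives, of which the deposited values and no background correction gave equal values, with 1.5-fold as dashed lines and 2-fold lower as a dotted line. Gnas stays below -1 throughout, from -1.34 to -1.06, and the other genes stay within 1.5-fold. The alternative detection settings repeat the reported values.

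Gnas was at least 2-fold lower under every setting tried, but the size depended on how its probes were combined. The alternative detection settings kept the same brightest probes, so they only repeated the reported differences of the 8 detected genes. Over the background corrections, the other normalizations and the deposited log2 values, the brightest probe ran from -1.34 to -1.29 and the second from -0.79 to -0.73. The mean of both detected probes was -1.06, which differs from -1.33 by more than the robust SD of 0.19. Gna13 ran from 0.43 to 0.49 and Gna12 from -0.51 to -0.38 over all settings.

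The other genes of the family on the array were Gna14, Gna15, Gnal, Gnao1, Gnat1, Gnat2, Gnat3 and Gnaz, 3 further beta genes, the beta-like gene Gnb1l and 11 gamma genes. Of these 23 genes, 14 were detected and none passed 1.5-fold in either direction by its brightest probe. Their median log2 difference was 0.11, with 9 above 0 and 5 below. All 4 detected alpha genes, Gna15 (0.34), Gnaz (0.35), Gnao1 (0.18) and Gna14 (0.08), had a difference above 0, against robust SDs of 0.34 to 0.39. Their intensities were low, between 211.7 and 397.7 on both arrays. Before normalization the intensity of Gna14 was lower with EMF+AuNPs, at 219.5 against 223.4 in Control. Gna14 is named after its value was seen. Gna15, which encodes an alpha subunit of blood cells, had 397.7 with EMF+AuNPs and 355.7 in Control.

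Among the beta genes, Gnb4 differed by 0.37 on its brightest probe and 0.65 on a dimmer one, and Gnb5 by -0.32 and -0.06. The lowest difference outside Gnas in the whole family was that of the gamma gene Gng5, with an intensity of 1053.9 with EMF+AuNPs and 1512.0 in Control, a log2 difference of -0.50. Gng11 differed by 0.36, and both probes of Gng2 by 0.18 and 0.17. By the brightest detected probe of each of the 22 detected subunit genes of the family, Gnas was the 1 gene past 1.5-fold, while the remaining differences ran from -0.50 to 0.45. The dimmer Gnb4 probe, which this count leaves out, was 1.57-fold higher, at an intensity of 242.2 with EMF+AuNPs and 198.8 in Control and against a robust SD of 0.39.

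Npepl1 and Ctsz, the detected ones among the listed neighbours of Gnas on chromosome 2, did not have a lower normalized signal. Other genes of the region were not described. Npepl1, an aminopeptidase-like gene 161.6 kb before it, had an intensity of 3538.7 with EMF+AuNPs and 3316.4 in Control, a log2 difference of 0.13. Ctsz, the cathepsin Z gene 80.8 kb after it, had 3121.7 with EMF+AuNPs and 2785.0 in Control on its brightest probe, a difference of 0.21. Its other probe had 2785.8 with EMF+AuNPs and 2798.7 in Control, a log2 difference of 0.035 after normalization. Stx16 and Tubb1, 184.5 kb before and 103.9 kb after Gnas, were not detected.

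Genes that act around the G proteins were then described by role, from lists of 187 symbols, of which 158 were on the array and 88 detected. Of the 88, 3 (3.41%) were at least 1.5-fold lower and 4 (4.55%) at least 1.5-fold higher, near the 2.91% and 3.34% of all detected genes. Their median log2 difference was 0.02, against 0.03 over all genes.

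Components of the cAMP branch, into which Gnas feeds, showed no common size or direction, and none of its enzymes passed 1.5-fold. Adenylyl cyclases, which make cAMP, had a median difference of 0.27, with 5 of 6 detected genes above 0. The largest were Adcy4 (0.43), Adcy1 (0.32) and Adcy2 (0.29), and the median was 0.16 without background correction. Of the 6, 1 was detected with EMF+AuNPs alone, so its bound could not lie below 0. Protein kinase A subunits, its inhibitors and the cAMP-binding exchange factors had a median of -0.20, with 5 of 7 below 0. The largest were Prkar1b, detected in Control alone (bound -0.50), Pkia (-0.28) and Prkar1a (-0.23). Of the 7, 2 were detected in Control alone, so their bounds could not lie above 0, and the median is 1 of these bounds. The 5 genes detected on both arrays ran from -0.28 to 0.21. The median of this list was -0.10 without background correction and -0.03 with no detection filter. The cAMP phosphodiesterases had a median of -0.05 over 6 detected genes, led by Pde1a (0.49), Pde4d (0.29) and Pde1b (-0.09), and its sign depended on the filter, with 0.09 at a detection p under 0.05 and 0.28 with no filter.

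CREB is the transcription factor that protein kinase A phosphorylates. Of 6 detected CREB family factors and coactivators, 1 passed 1.5-fold, the coactivator gene Crtc3, on the higher side, where 3.34% of all detected genes lay. Its 1 probe had an intensity of 820.8 with EMF+AuNPs and 512.8 in Control, a log2 difference of 0.90, or 1.87-fold higher. Crem, a family member with activating and repressing forms, differed by 0.58, 0.36 and 0.58 on its 3 detected probes, and Creb1 by 0.35 on the 1 detected of its 6 probes. All of these probes were dim, at intensities between 208.7 and 344.3 on both arrays, and their robust SDs were 0.38 to 0.43. Without background correction the brightest Crem probe differed by 0.39. Of 11 detected genes known to be induced through cAMP and CREB, none passed 1.5-fold, 6 lay above 0 and 5 below, and the median was 0.08, with Fos at 0.47 and Junb at 0.46. That median was -0.05 both at a detection p under 0.05 and with no filter.

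**Figure D5:**
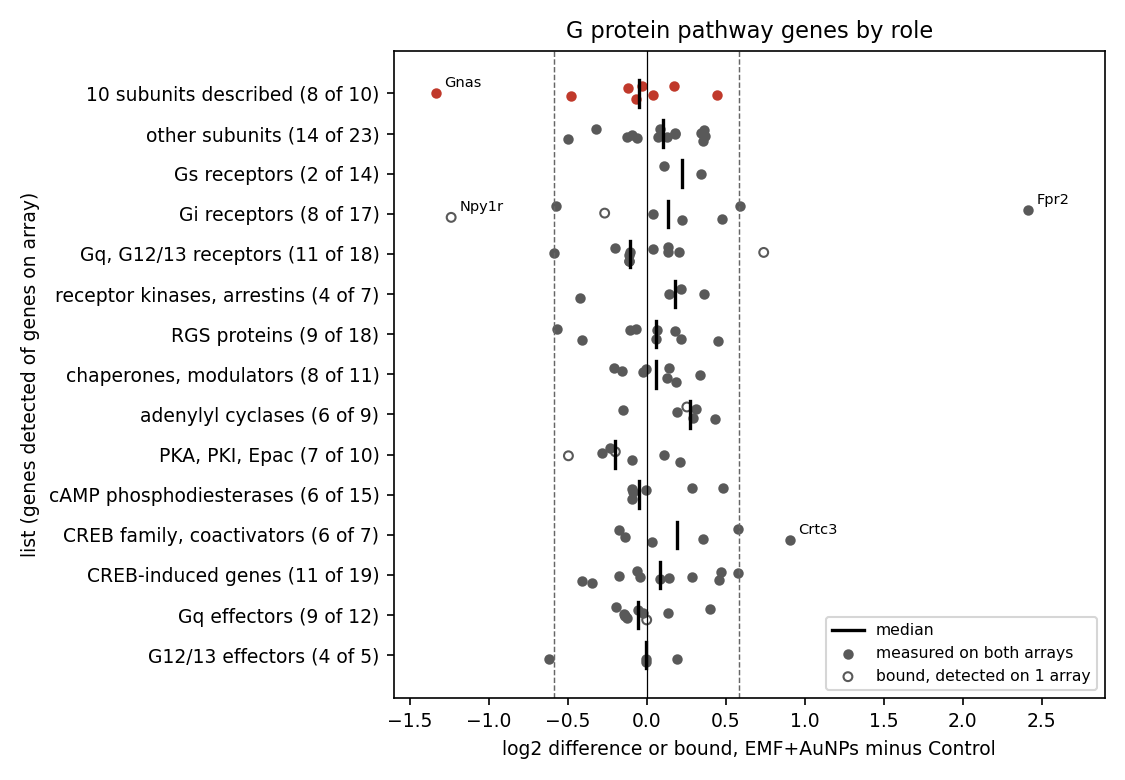
Log2 difference or bound (EMF+AuNPs minus Control) of every detected gene by list, with filled points for genes detected on both arrays, open points for bounds, a bar for each list's median and 1.5-fold as dashed lines. Beyond Gnas at -1.33, the points farthest from 0 are Fpr2 at 2.41, Npy1r at a bound of -1.24 and Crtc3 at 0.90.

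Of receptors that couple mainly to the stimulatory subunit, 2 of 14 on the array were detected, Ptgir for prostacyclin (0.34) and Pth1r for parathyroid hormone (0.11). Of 8 detected receptors that couple mainly to inhibitory subunits, 2 were at least 1.5-fold higher and 1 lower, against 3.34% and 2.91% of all detected genes. The 2 higher were the formyl peptide receptor gene Fpr2 (2.41, but 1.67 without background correction) and the purinergic receptor gene P2ry12 (0.59). The lower one was the neuropeptide Y receptor gene Npy1r, detected in Control alone, with a bound of 2.36-fold lower with EMF+AuNPs after neqc. Being detected in Control alone, it could only count as lower. Its intensity was 180.2 with EMF+AuNPs, close to the lowest detected intensity of 181.5 on that array, and 312.0 in Control. Without background correction the log2 bound of Npy1r was -0.71. Among 11 detected receptors that couple to the other alpha subunits, the serotonin receptor gene Htr2b, detected with EMF+AuNPs alone, had a bound of 0.74, the angiotensin receptor gene Agtr1a differed by -0.59 and Lpar1 by 0.20.

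Without background correction Agtr1a, P2ry12 and Htr2b were all under 1.5-fold, at -0.49, 0.42 and a bound of 0.39. None of 9 detected RGS genes, whose products speed GTP hydrolysis by alpha subunits, passed 1.5-fold, with Rgs3 at -0.57, Rgs19 at 0.45 and Rgs2 at -0.41. The same held for 4 receptor kinases and arrestins (Grk5 -0.42, Arrb2 0.36, Grk6 0.22), for 8 chaperones and modulators (Gpsm1 0.34, Pdcl -0.21, Gpsm3 0.19) and for 9 effectors of Gq and G11 (Itpr2 0.40, Arhgef25 -0.20, Prkcd -0.14). Of 4 detected effectors of G12 and G13, 1 was at least 1.5-fold lower and none higher, against 2.91% and 3.34% of all detected genes. Without background correction that 1 gene too was under 1.5-fold, at -0.56. The median difference of the list was -0.01, or 0.03 under median centring.

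By the pair of level and difference on the 2 arrays, the genes closest to the brightest Gnas probe among 8198 others were Srpx, Plp2 and Rbbp7. Their log2 levels were 11.45 with EMF+AuNPs and 12.45 in Control for Srpx, 11.16 with EMF+AuNPs and 12.19 in Control for Plp2, and 11.37 with EMF+AuNPs and 12.23 in Control for Rbbp7. The measure was the Euclidean distance over mean log2 level and log2 difference, which was 0.33, 0.40 and 0.49.

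The cultures carried fibroblast markers, and all 13 on the array were detected, with a summed intensity of 226762 with EMF+AuNPs and 243620 in Control. Their median difference was -0.09, with 9 below 0 and 4 above, and the lowest was S100a4 (-0.49). Ddr2 (0.61) was the 1 gene of them past 1.5-fold. In the deposited log2 values, which carry no background correction, Ddr2 was under that limit at 0.54. Macrophage and leukocyte markers were detected too, 11 of 12, with a summed intensity of 187864 with EMF+AuNPs and 177606 in Control and a median difference of 0.18, and 9 of the 11 lay above 0. Cd52 passed 1.5-fold, with 4152.4 with EMF+AuNPs and 2471.4 in Control (0.80), and Fcgr1 differed by 0.50. Adgre1, a defining macrophage gene, differed by 0.06 and 0.13 on its 2 bright probes but by -1.38 on a dimmer one, with 649.7 with EMF+AuNPs and 1611.5 in Control. Itgam was not detected, and Ptprc was detected in Control alone (bound -0.51). Of 13 neuron markers 9 were not detected, and none of the other 4 passed 1.5-fold. Of 13 muscle, fat and epithelial markers 7 were not detected, and the median of the 6 detected was 0.45. Among these the muscle genes Mylpf (0.86) and Tnnt1 (0.64) were at least 1.5-fold higher and the fat regulator gene Pparg (-0.59) was lower, all at intensities between 284.5 and 741.9. Before background correction and normalization, the intensities of Mylpf, Tnnt1 and Pparg were each under 1.5-fold apart. The part of these shifts in the differences of Gnas and its relatives was not tested. The reference genes Actb, Gapdh, Hprt, Tbp and B2m differed by 0.12, 0.03, 0.09, 0.05 and -0.04.

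Over all 25697 probes the median intensity was 161.8 with EMF+AuNPs and 165.3 in Control, and 46.6% of probes were detected with EMF+AuNPs and 46.7% in Control. Detection began at an intensity of 181.5 with EMF+AuNPs and 187.0 in Control.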

How the data were processed

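Total RNA was amplified to biotin-labelled cRNA, per the labels' protocols. The authors deposited a non-normalized linear intensity and a detection p-value for each probe and array. The submitters' processing notes name GenomeStudio 2011.1, and further steps are not given in the sources used here. Log2 values, likewise deposited by the authors, equalled the quantile normalized log2 intensities to within 5e-07. Columns were assigned by the sample descriptions that head them. The platform annotation named 23978 probes with 1 gene each, 0 with several and left 1719 unnamed, and 23962 matched a RefSeq gene by Entrez number.

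Intensities were processed with neqc of limma 3.58.1 in R 4.3.3 (offset 16). A gene was represented by its brightest probe detected (p under 0.01) on at least 1 array, with a bound in place of a difference where it was detected on 1 array. Limits were 1.5-fold and 2-fold. Normalization and the fold calls of single probes were tested on simulated arrays, with changes placed only on detected probes well above background. Changes on dim probes, gaps between probes and list medians were not tested in this way. Members and lists were chosen with earlier results of these data known. Genes named were all members, for every other list those past 2-fold and the 3 with the largest difference, the 3 closest to Gnas, cell type markers and reference genes; exceptions are marked. Genes of 1 list, that of effectors of G12 and G13, are not reported by name here. Lists overlap (Crem, Rgs2 and Pde4d stand in 2 each). Alternatives covered background correction, normalization, the deposited log2 values, detection and averaging of probes. Probe and protein sequences were not used here. With 1 array per condition, the number of arrays limits the precision.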

Additional observations from a re-analysis of the deposited data

How the results depend on the processing

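The deposited log2 values and no background correction gave equal values for all 46 results and are counted as 1 alternative, which leaves 7. Of 112 comparisons of a main value or count with an alternative setting, 103 differed by less than the yardstick used (the robust SD of like brightness for differences, 0.1 on the log2 scale for list medians, 1.5 times for counts). The differences of both Gnas probes, each run under the alternatives of background correction and normalization, and the counts of subunit genes past either limit, run under every alternative, were among these. The alternative detection settings kept the same brightest probes, so they could not change the differences of the detected subunit genes. The other 9 were counts of pathway genes and the gap between Gnas probes. Without background correction, with normexp that ignores negative controls (offset 50), and with the deposited log2 values, pathway genes at least 1.5-fold lower numbered 1 (3 as reported), those at least 1.5-fold higher 2 (4 as reported) and those at least 2-fold lower 0 (1 as reported). The cause was not tested. With no detection filter, which admits more genes, the counts were 6 at 1.5-fold lower and 2 at 2-fold lower, and the gap between Gnas probes was 1.42 because the undetected probes entered it. Over all genes, those at least 2-fold lower numbered 42 as reported and 16 without background correction or with the deposited log2 values. The corresponding counts higher were 45 and 24. The 1.5-fold counts were 252 lower and 289 higher as reported, and 138 and 119 without background correction. With no detection filter they were 417 and 506. Among single genes and the medians of single lists, 18 further values moved by more than the yardstick, 13 of them list medians and 5 gene differences. The latter were Gnas, at -1.06 with probes averaged, and Fpr2 and Npy1r without background correction (1.67 and -0.71) and with normexp at offset 50 (1.85 and -0.82). List medians that moved across 0 were those of RGS genes (0.06 as reported, -0.07 at a detection p under 0.05), receptors of the other alpha subunits (-0.11 as reported, 0.05 with no filter), cAMP phosphodiesterases and CREB targets. No paired analysis was possible because each condition has 1 array, and no array could be left out. Signal over background limits the values of Gnai3, Gng12 and the dim probes of Gnas and Gnaq.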
